A study of Mus musculus with 2 samples.

Results

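Endothelial and endocardial nuclei of the mouse right atrium were chosen by counts of marker genes, 519 of the 6408 nuclei in both libraries (8.10%, 95% interval 7.44 to 8.79). A nucleus was taken when its summed count over 16 genes was at least 2, with TTN at most 1, TNNI3 plus MYL4 at most 1 and COL1A1 plus COL3A1 plus FBLN1 at most 1. The 16 marker genes were FLT1, PTPRB, TEK, ENG, RAPGEF5, NPR3, HMCN1, TMEM108, NRG1, BCL6B, DLL4, KLHL4, ERG, PRKCH, GATA2 and LDB2. The chosen nuclei are called members here, and the summed count over the 16 genes is called the marker sum. Because measured counts chose the members, the levels of these 16 genes and of the 6 limit genes in them are a description, not a finding.

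The study placed the p.G125R variant of Tbx5, a T-box transcription factor of the atria, into the mouse genome and compared adult heterozygous Tbx5 G125R/+ mice with adult control mice. For each genotype the right atria of 3 animals were pooled, and their nuclei were sorted on DNA content and read by droplet single-nucleus RNA sequencing, giving 1 library a genotype. Because both genotypes have 1 library, no test was made: intervals in the text are 95% intervals that cover counting error only, and the variation between mice is not known. The labels give neither the sex of the animals nor more on the control alleles than "control".

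Endothelial cells line blood vessels and, as endocardium, the inner surface of the heart chambers. They take growth signals through the receptors FLT1 and KDR for vascular endothelial growth factor and through TEK for angiopoietins, and ETS and GATA transcription factors such as ERG and GATA2 maintain their gene program. In mice the endocardium is marked by the natriuretic peptide receptor NPR3, while DLL4, a Notch ligand, marks arterial and sprouting capillary endothelium.

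All 9330 genes of the count tables carry human identifiers although the tissue is mouse, so human symbols are used throughout, and counts are those assigned to the human identifier. The tables hold 560272 counts in 3475 control nuclei and 422811 in 2933 Tbx5 G125R/+ nuclei, and nuclei are shallow. Members had a median of 145 counts in the control library (57 to 428) and 131 in the Tbx5 G125R/+ library (45 to 345), close to the other nuclei, at 137 and 124. No nucleus identifier was shared by the libraries. Doublets were not called or removed beyond the limits on muscle and matrix genes.

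The control library held 275 members of 3475 nuclei (7.91%, 7.04 to 8.86), and the Tbx5 G125R/+ library held 244 of 2933 (8.32%, 7.34 to 9.38). The share in Tbx5 G125R/+ over control was 1.05-fold (0.881 to 1.25), and the intervals of both shares overlap. Among nuclei that met the limits, members made up 13.2% in the control library and 13.1% in the Tbx5 G125R/+ library. A pool of tissue does not tell a share of nuclei captured from a share of cells in the atrium.

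The threshold lies in a dense part of the distribution. A marker sum of exactly 2 was found in 135 of the 275 control members (49.1%) and 140 of the 244 Tbx5 G125R/+ members (57.4%). A marker sum of 5 or more was found in 41 control members (14.9%, 10.9 to 19.7) and 17 Tbx5 G125R/+ members (6.97%, 4.11 to 10.9). The part of depth, which was lower in Tbx5 G125R/+ members, was not tested. Just outside, 369 control and 309 Tbx5 G125R/+ nuclei met the limits with a marker sum of 1. Another 116 control and 58 Tbx5 G125R/+ nuclei had a marker sum of 2 or more but exceeded a limit, most often that of TNNI3 plus MYL4 (88 and 33). As a background for the threshold, a marker sum of 2 or more was reached by 13 of 385 control nuclei (3.38%) and 23 of 395 Tbx5 G125R/+ nuclei (5.82%) with at least 5 counts of TTN, the titin gene of muscle.

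A few genes carried most of the choice. HMCN1, which encodes the extracellular matrix protein hemicentin 1, gave 45.4% of the marker counts in members, with 392 counts in the control and 291 in the Tbx5 G125R/+ library. It was detected in 369 members (71.1%), and 87 members were chosen by HMCN1 alone. With HMCN1 left out of the marker sum, the shares of members were 4.06% in the control and 4.16% in the Tbx5 G125R/+ library. TEK, the angiopoietin receptor, followed with 127 and 100 counts in 185 members, 12 of them without another marker gene. The pair most often found together was TEK with HMCN1, in 118 members, ahead of RAPGEF5 with HMCN1, in 52.

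The less frequent marker genes were spread over many members. RAPGEF5, an exchange factor for Rap GTPases, had 50 counts in control and 51 in Tbx5 G125R/+ members. GATA2 had 58 and 32, NPR3 had 38 and 31, and ERG had 20 and 31. FLT1, a receptor for vascular endothelial growth factor, had 15 and 18 counts, and PTPRB, a phosphatase that acts on TEK, had 12 and 12. NRG1, the ligand by which endocardium signals to muscle, was the rarest together with the TGF-beta co-receptor ENG, at 10 counts each over both libraries. In all, 119 members had counts of a single marker gene, 277 of 2, 88 of 3, 31 of 4 and 4 of 5.

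Each marker gene was then measured in nuclei chosen by the other 15, with the same threshold and limits, so that its own counts did not choose the nuclei. Of the 16 genes, 15 were higher in the chosen than in the remaining nuclei in both libraries, and for 11 the interval lay above 0 in both. The remaining nuclei include the muscle and fibroblast nuclei that exceeded a limit, which fixes part of this contrast. The rule was also chosen with earlier results of these data known, so these levels are a description. HMCN1 was at 57.9 counts per 10000 in 141 control nuclei chosen without it, against 13.6 in the remaining control nuclei. The corresponding levels in the Tbx5 G125R/+ library were 49.5 and 12.4. TEK was at 18.9 against 4.17 in control and 16.2 against 3.91 in Tbx5 G125R/+ nuclei. ERG stood further apart, at 3.40 against 0.42 and 4.99 against 0.74. NRG1 was the exception, with 0 counts in the control nuclei chosen without it and 2 in the Tbx5 G125R/+ nuclei.

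**Figure D1:**
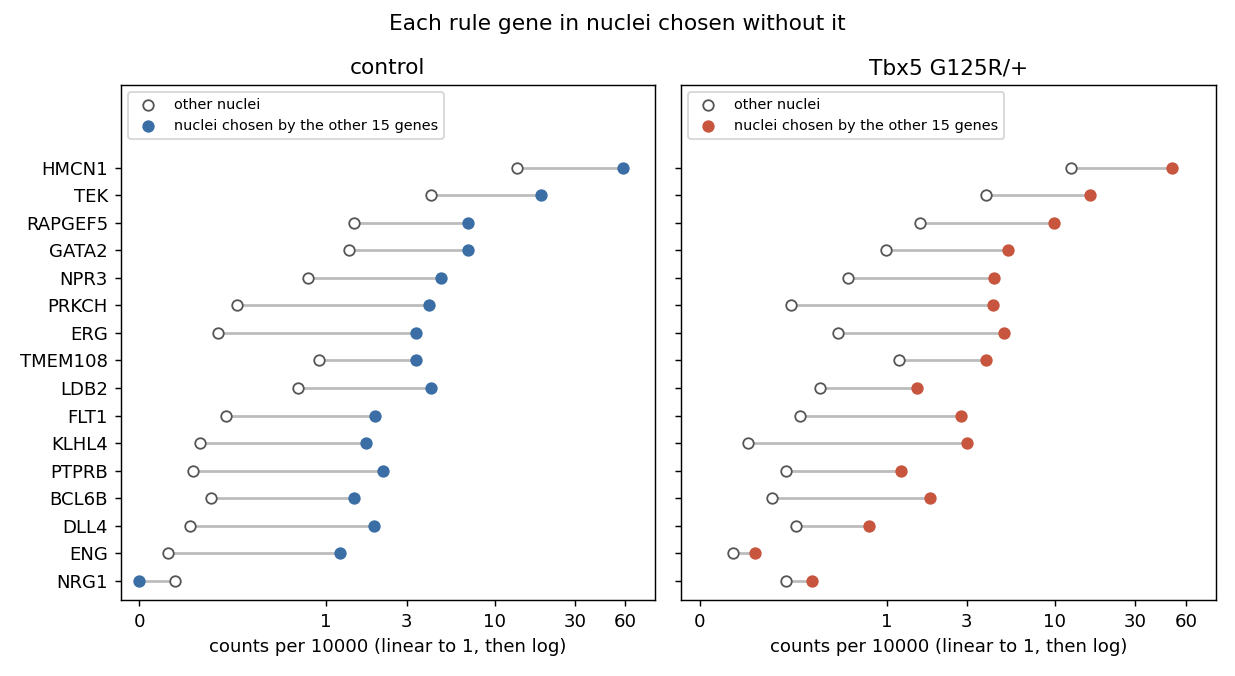
Level of each marker gene, in counts per 10000 on an axis that is linear to 1 and logarithmic above, in nuclei chosen by the other 15 genes (filled) and in all other nuclei (open), for each library. For 15 of the 16 genes the filled point lies to the right of the open point in both libraries, and NRG1 is at 0 among the chosen control nuclei.

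Genes outside the rule were compared between members and all other nuclei as counts per 10000, within each library. Of 2904 genes with at least 40 counts, 140 were at least 2-fold higher in members in both libraries (4.82%) and 225 were at least 2-fold lower in both (7.75%). Named here are genes of the 15 highest ratios among genes called in both libraries with at least 20 counts in members.

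RGS3, which turns off signaling by G proteins, had the highest ratio and many counts. Control members had 105 counts (25.6 per 10000) and Tbx5 G125R/+ members 95 (28.7), against 4.42 and 3.95 per 10000 in the other nuclei of each library. The log2 ratio of RGS3 over both libraries was 2.68 (2.42 to 2.93), with 2.54 in control and 2.86 in Tbx5 G125R/+. A count of RGS3 was found in 28.1% of members, 0.29% of cardiomyocyte nuclei (TTN at least 5) and 0.47% of fibroblast nuclei (matrix genes COL1A1, COL3A1 and FBLN1 at least 2 in sum). Median depth was 251 counts in cardiomyocyte nuclei, 141 in fibroblast nuclei and 137 in members. The mouse gene Rgs3 lies on chromosome 4 from 62559847 to 62704001 (plus strand, GRCm38, the build named mm10 in the processing notes).

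FOXC1, a forkhead transcription factor of developing vessels and endocardium, had 48 counts in control members (11.7 per 10000) and 25 in Tbx5 G125R/+ members (7.55), against 1.84 and 1.82 in other nuclei. Its log2 ratio was 2.44 (2.01 to 2.84). Mouse Foxc1 lies on chromosome 13 from 31806633 to 31812476. SHANK3, a scaffold protein known from synapses that is also found in endothelium, had 20 and 22 counts with a log2 ratio of 2.54 (1.96 to 3.08). EFNB2, the ephrin ligand of arterial endothelium, had 19 and 20 counts and a log2 ratio of 2.16 (1.58 to 2.69). ACVR1, a type I receptor for bone morphogenetic proteins, had 26 and 30 counts and a log2 ratio of 2.05 (1.57 to 2.48).

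The log2 ratios of the other named genes went from 2.11 to 2.63. Among them were ECE1, the enzyme that releases mature endothelin, CAVIN2, a coat protein of caveolae, and ADAMTS1, a protease that cleaves versican. PLK2 is a polo-like kinase, PLXNC1 a semaphorin receptor, SALL1 a zinc finger transcription factor and CDC14A a phosphatase. SAMD12 and AC007319.1 were also among them. Each of these genes was detected in a smaller share of cardiomyocyte than of member nuclei, at most 1.60% of cardiomyocyte nuclei (ACVR1) and at least 3.66% of members (SALL1, SAMD12 and ECE1).

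**Figure D2:**
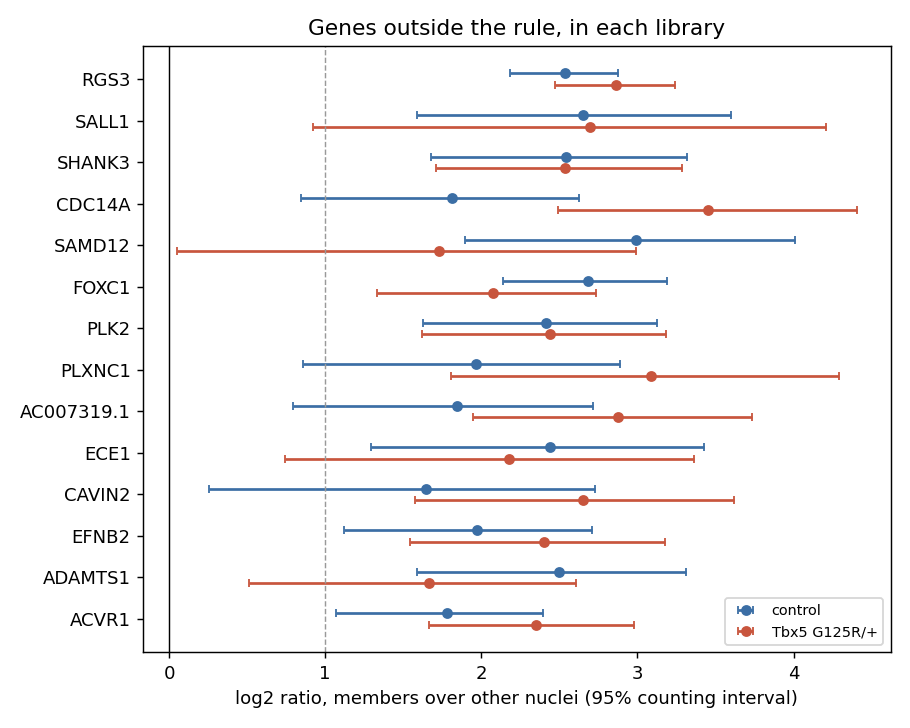
Log2 ratio of the level in members over all other nuclei for 14 of the 15 genes with the highest ratios, in control (blue) and Tbx5 G125R/+ (red), with 95% counting intervals; the dashed line marks 2-fold. All points lie to the right of the 2-fold line in both libraries, with RGS3 at 2.54 and 2.86.

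The comparison with all other nuclei includes muscle and fibroblasts. Against nuclei that met the same limits and had a marker sum of 0, of 1783 genes with at least 40 counts 75 were at least 2-fold higher in members in both libraries (4.21%) and 102 were lower (5.72%). Both comparisons share 60 of the higher genes, which is 60 of 140 and 60 of 75. All 15 named genes were above 0 in this comparison, with RGS3 at a log2 ratio of 2.74 and FOXC1 at 2.82. That sign was largely fixed in advance. The marker sum 0 nuclei are 2748 of the 5889 other nuclei over which the 15 genes were picked for high ratios. Among the 15, PLXNC1 had 1.80 and ADAMTS1 1.75.

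Genes outside the rule were also followed by marker sum, on both sides of the threshold. RGS3 was at 3.83, 14.96, 18.9, 28.7 and 33.0 per 10000 in control nuclei that met the limits with a marker sum of 0, 1, 2, 3 and 4 or more. In the Tbx5 G125R/+ library the same series was 4.31, 13.9, 22.8, 41.7 and 30.4. Nuclei with a marker sum of 1 therefore lay between those with 0 and the members in both libraries. FOXC1 went from 1.13 at a marker sum of 0 to 17.6 at 4 or more in control nuclei, and from 1.71 to 10.6 in Tbx5 G125R/+ nuclei. RAMP2, a partner of the adrenomedullin receptor that is needed for vessel integrity in mice, went from 10.7 at 0 to 40.5 at 2 and 36.0 at 4 or more in control nuclei. HEG1, an endothelial receptor of the cerebral cavernous malformation pathway, was at 3.995 per 10000 at 0 and 17.9 at 2 in control nuclei, against 5.06 and 15.9 in Tbx5 G125R/+ nuclei.

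**Figure D3:**
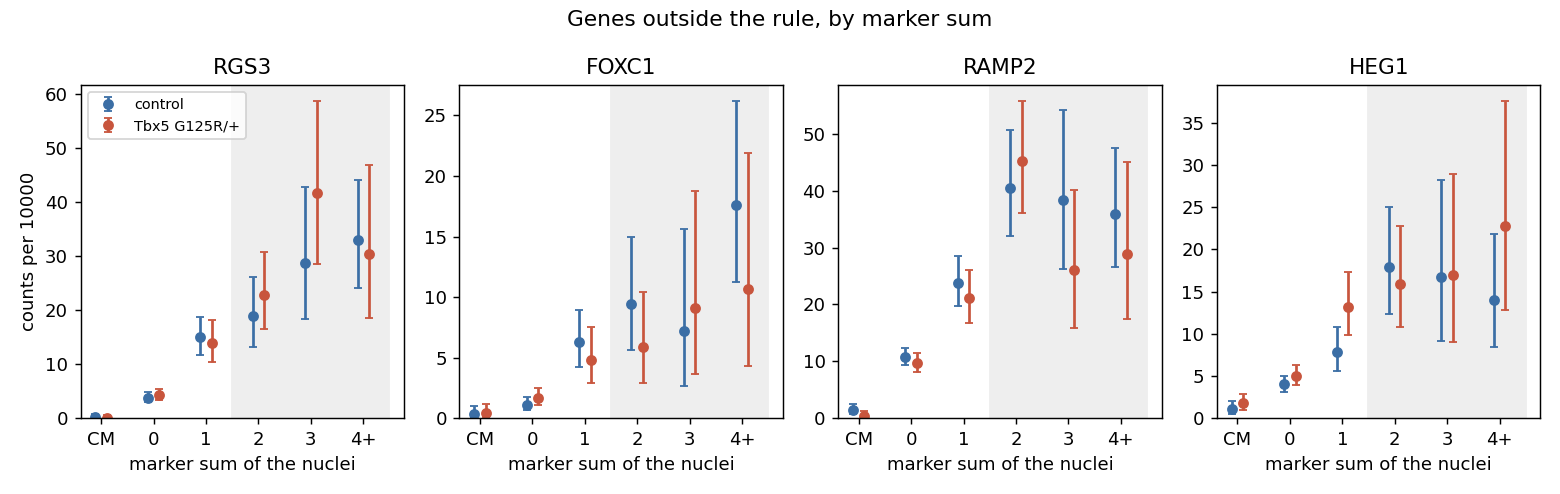
Counts per 10000 of RGS3, FOXC1, RAMP2 and HEG1 (linear axes) in cardiomyocyte nuclei (CM) and in nuclei that met the limits, by marker sum, for control (blue) and Tbx5 G125R/+ (red); bars are exact 95% Poisson intervals and the grey field marks members. Each gene is lowest in cardiomyocyte nuclei, and nuclei with a marker sum of 1 lie between those with 0 and those with 2.

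Members chosen by HMCN1 alone were compared with the remaining members, since fibroblasts too can make matrix proteins. RGS3 was at 24.0 per 10000 in the 87 members chosen by HMCN1 alone and 27.6 in the others, and FOXC1 was at 13.2 and 9.16. The level of both genes at a marker sum of 0 was far lower, at 4.04 and 1.39. PDGFRA, the fibroblast receptor, had 0 counts in either kind of member. COL1A2, a fibrillar collagen, was at 3.10 in HMCN1-only and 2.13 in other members, and BNC2, a zinc finger factor, at 3.87 and 0.98 (log2 ratio 2.00, -0.07 to 3.96). The endothelial factors TAL1, at 0.77 and 2.62, and FLI1, at 1.55 and 2.94, had lower values in HMCN1-only members, with intervals that included 0. The endothelial receptor KDR went the other way, with 3 counts in HMCN1-only members (2.32) and 4 in the others (0.65). Its interval also included 0 (log2 ratio 1.88, -0.94 to 4.39). The log2 ratio of HMCN1-only over other members had an interval that included 0 for each of the 15 named genes. Some of these intervals were wide, such as -1.79 to 1.88 for SALL1 and -3.24 to 0.84 for ADAMTS1. The 15 genes were also picked in members of both kinds, so these values do not show that both kinds are alike.

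Nuclei left out by the limits alone carried part of the same profile. RGS3 was at 10.3 per 10000 in the 116 control and 9.42 in the 58 Tbx5 G125R/+ nuclei with a marker sum of 2 or more that exceeded a limit. MYH6, the atrial myosin heavy chain, was at 52.4 and 73.2 per 10000 in these nuclei, against 15.4 and 11.5 in members. Whether these are mixtures was not tested.

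The label was checked against endothelial markers that the rule did not use. Of 13 such markers, 6 were detected in control members and 7 in Tbx5 G125R/+ members. Their summed level was 17.4 per 10000 (13.6 to 21.9) in control members and 24.2 (19.2 to 30.04) in Tbx5 G125R/+ members. It was 0.32 and 1.22 in cardiomyocyte nuclei, and 14.3 and 14.0 in fibroblast nuclei. Nuclei that met the limits with a marker sum of 0 had 13.8 (12.1 to 15.6) in control and 14.0 (12.2 to 16.1) in Tbx5 G125R/+, so the intervals of members and these nuclei overlapped in the control library. In fibroblast nuclei 3 of the 13 were detected in each library, and most of the level was MECOM, a zinc finger factor, at 13.1 per 10000 against 10.7 in members. SHANK3 was at 0.30 in fibroblast nuclei and 5.54 in members. For CDH5, EMCN, EGFL7, CYYR1 and PECAM1, which are defining genes of endothelium, no counts were listed in any nucleus of either library. Genes missing from the counts were set to 0, so a missing gene is not told from one measured at 0. These genes could not bear on the label. KDR had 5 and 2 counts in members, VWF 0 and 1, and TIE1 1 and 1.

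Lists of endothelial genes outside the rule were compared in the same way. Of 7 tested genes of a pan-endothelial list, 3 were higher in members in both libraries, SHANK3, TAL1 and ARHGAP31. TAL1, a transcription factor of blood and endothelial progenitors, had 12 counts in control and 5 in Tbx5 G125R/+ members and a log2 ratio over other nuclei of 2.14 (1.22 to 2.94). The full list was at 34.3, 68.1 and 84.2 per 10000 in control nuclei that met the limits with marker sums of 0, 1 and 2. In Tbx5 G125R/+ nuclei these levels were 38.3, 74.3 and 114, and cardiomyocyte nuclei had 60.2 in control and 80.03 in Tbx5 G125R/+. The planned list held the broadly detected ARHGAP31 and MECOM. Without these 2 genes the list was at 15.3, 19.2 and 12.5 per 10000 in control members with marker sums of 2, 3 and 4 or more. In Tbx5 G125R/+ members it was at 18.1, 20.8 and 24.3. Cardiomyocyte nuclei had 1.93 of this shorter list in control and 1.53 in Tbx5 G125R/+. Nuclei that met the limits had 5.18 and 6.22 at a marker sum of 0, and 10.3 and 11.4 at 1.

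In the list of VEGF and angiopoietin signaling, 2 of 6 tested genes were higher in members and 2 were lower. NRP1 and NRP2, the co-receptors for vascular endothelial growth factor and semaphorins, had log2 ratios over other nuclei of 1.30 (0.83 to 1.72) and 1.67 (1.06 to 2.22). The ligand VEGFA was lower in members, at 3.90 per 10000 in control and 3.02 in Tbx5 G125R/+ members against 19.3 in other nuclei. ANGPT1, the ligand of TEK, was lower too, with 2 and 1 counts in members (log2 ratio -3.04, -5.55 to -1.70).

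In the list of BMP and TGF-beta signaling, 3 of 11 tested genes were higher in members and 0 were lower. BMPR2, the type II receptor whose loss causes hereditary pulmonary hypertension in humans, had a log2 ratio of 1.20 (0.77 to 1.59). The inhibitory SMAD6 had 1.11 (0.76 to 1.42) and the receptor TGFBR2 1.22 (0.28 to 1.99). ID3, a target of BMP signaling, was at 33.2 per 10000 in control and 28.4 in Tbx5 G125R/+ members against 18.6 in other nuclei, a log2 ratio of 0.74 (0.54 to 0.94) that did not reach 2-fold.

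Transcription factors and junction genes followed. Of 18 tested endothelial transcription factors, 4 were higher and 0 lower in members. FOXP1 was at 51.5 and 57.4 per 10000 in control and Tbx5 G125R/+ members against 21.3 in other nuclei, and NR2F2, which specifies veins and atria, at 25.4 and 28.1 against 11.2. ELK3, an ETS factor, had a log2 ratio of 1.24 (0.71 to 1.72), and the fourth factor was TAL1. Among 17 tested genes of junctions and adhesion, 6 were higher and 1 was lower in members. HEG1 had 67 and 58 counts in members and a log2 ratio of 1.65 (1.35 to 1.93). The others were PKP4, DOCK4, ARHGAP29, MAGI1 and ARHGAP31, while CTNNA3, the alpha-catenin of heart muscle, was the lower gene.

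Lists of vessel subtypes held few tested genes. In the arterial and Notch list, EFNB2 was higher and FBLN5 lower of 7 tested, and in the venous and lymphatic list NR2F2 was higher of 2. None of 3 tested genes of capillaries and lipid uptake was past 2-fold in both libraries. In the basement membrane and matrix list, FN1 was higher and IGFBP7 lower of 7 tested. Of the glucocorticoid-responsive list ERRFI1 was lower of 7, of the immediate-early list FOS was lower of 5, and of 15 tested splicing and nuclear speckle genes 0 were past the fold. Mitochondrially encoded genes had no tested member.

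Genes lower in members included many of muscle and fibroblasts, which the limits in part fix. TPM2, a tropomyosin, had 0 counts in members and 470 in other nuclei, which with a floor of 3 counts over both libraries is at least 13.1-fold lower. FGF12, a modulator of sodium channels, had 0 against 256 counts, at least 7.14-fold lower. SLC8A1, the sodium-calcium exchanger of cardiomyocytes, had 7 counts in members and 1384 in other nuclei (log2 ratio -3.95, -5.36 to -3.001). PDGFRA had 0 against 174 counts, at least 4.85-fold lower. In the list of cardiomyocyte transcripts outside the rule, 10 of 13 tested genes were lower and 0 higher.

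Markers of other cell types were summed outside the rule and limit genes. The 5 cardiomyocyte markers were at 33.8 per 10000 in control and 27.7 in Tbx5 G125R/+ members, against 232 and 219 in cardiomyocyte nuclei, with TNNT2 and MYBPC3 at 0. The 7 fibroblast markers were at 8.10 (5.61 to 11.3) and 4.13 (2.26 to 6.93), against 48.3 and 48.5 in fibroblast nuclei, with PDGFRA and LUM at 0 (LUM had 1 count in all other nuclei). Of 8 macrophage markers only RBPJ had counts, 4 in each library, and all 5 lymphocyte markers were at 0. Mural markers had 1 count in each library, and the 5 glial markers summed to 3 and 2.

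The summed level of the 6 epicardial markers was higher in members than in other nuclei, at 12.2 per 10000 (9.05 to 15.98) in control and 10.3 (7.19 to 14.4) in Tbx5 G125R/+ members. The other nuclei had 4.80 and 4.53. Fibroblast nuclei had 5.41 (3.74 to 7.56) in control and 12.3 (8.97 to 16.6) in Tbx5 G125R/+, so the level was not particular to members. Most of the counts in members were of GPM6A, a neuronal membrane glycoprotein, with 45 and 28. BNC2 was at 1.45 in members and 1.36 in other nuclei, ELAVL2 at 0.13 and 0.28, and WT1 at 0.13 and 0.03. For the epicardial genes MSLN and UPK3B no counts were listed in any nucleus of either library, so they could not be used. GPM6A was higher at a marker sum of 1 than at 0 but did not rise steadily beyond it. It went from 2.36 at 0 to 8.69 at 1 and 10.5 at 2 in control nuclei and from 2.26 to 8.37 and 7.97 in Tbx5 G125R/+ nuclei. In both libraries it was highest at 3 and lower at 4 or more, at 8.07 in control and 4.56 in Tbx5 G125R/+ nuclei. Within each library the intervals at 2, 3 and 4 or more overlapped.

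Members were divided by the kind of marker gene they carried. The endocardial side comprised NPR3, HMCN1, TMEM108 and NRG1, and the vascular side the other 12 genes. Counts of the endocardial side alone were found in 59 control and 66 Tbx5 G125R/+ members, and of the vascular side alone in 54 and 57. Most members with the endocardial side alone were the 87 chosen by HMCN1 alone. HMCN1 was also counted in cardiomyocyte and fibroblast nuclei, at 5.52 and 5.99 per 10000, against 90.04 in members. Cardiomyocyte and fibroblast nuclei were chosen with a marker sum of at most 1, which fixes much of this gap in advance. The division therefore rests in large part on HMCN1, and whether it separates endocardium from vessels was not tested. Both sides were present in 162 control members (58.9%, 52.8 to 64.8) and 121 Tbx5 G125R/+ members (49.6%, 43.2 to 56.0). Median depth was 134 counts in endocardial-side, 128 in vascular-side and 144 in members with both.

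Of 132 genes with at least 40 counts in members of a single side, 9 had an interval above 0 (higher on the endocardial side) and 7 below. TCF4, a basic helix-loop-helix transcription factor, stood out on the vascular side. It had 57 counts in control and 47 in Tbx5 G125R/+ members of the vascular side, against 24 and 27 on the endocardial side, with a log2 ratio of -1.33 (-1.85 to -0.84). BPTF, a chromatin remodeling factor, had a log2 ratio of -1.496 (-2.64 to -0.51) and MEF2A, a MADS-box factor, -1.15 (-2.12 to -0.28).

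On the endocardial side, CDH11, a cadherin on the endocardial list, had 12 and 19 counts on the endocardial side against 4 and 8 on the vascular side (log2 ratio 1.03, 0.06 to 2.16). MEIS2, a homeobox factor, had 0.93 (0.30 to 1.62), NFIA 0.97 (0.39 to 1.60) and FOXP1 0.74 (0.25 to 1.26). RGS3 did not separate the sides (0.29, -0.41 to 1.02). Some muscle transcripts moved with the same division. MYH7 had 95 counts on the endocardial and 37 on the vascular side (1.04, 0.49 to 1.64), and CRYAB 45 and 21. MYH6 (0.76, -0.12 to 1.74), ACTC1 (0.25, -0.55 to 1.09) and TPM1 (-0.36, -1.16 to 0.44) had intervals that included 0. Cardiomyocyte markers were at 45.4 per 10000 on the endocardial and 32.6 on the vascular side in control members and at 31.0 and 21.1 in Tbx5 G125R/+ members. Their part in the result was not tested.

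**Figure D4:**
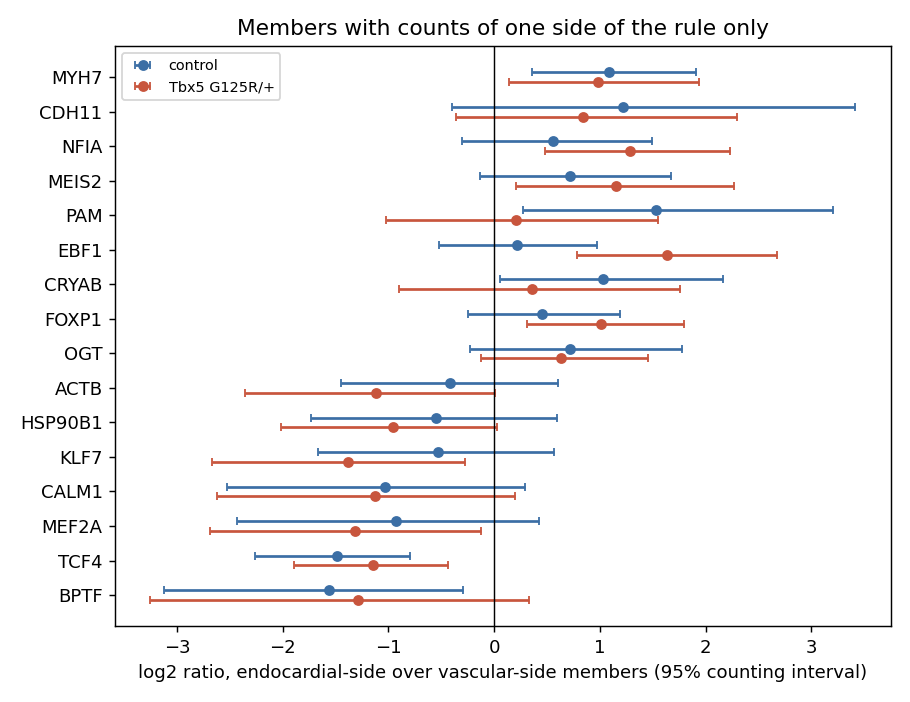
Log2 ratio of endocardial-side over vascular-side members for the 16 genes whose interval over both libraries leaves out 0, in control (blue) and Tbx5 G125R/+ (red), with 95% counting intervals. TCF4 and BPTF lie left of 0 and MYH7 and CDH11 right of 0 in both libraries.

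The last comparison set members of the Tbx5 G125R/+ library against members of the control library. TBX5 itself had 0 counts in members of both libraries, where 3 counts would be 0.885 per 10000 in Tbx5 G125R/+ and 0.715 in control, so its level in these nuclei was not detectable at this depth. Of 389 genes with at least 40 counts in members, 26 were at least 1.5-fold higher in Tbx5 G125R/+ (6.68%) and 26 at least 1.5-fold lower (6.68%). The interval lay above 0 for 15 genes (3.86%) and below 0 for 17 (4.37%), and both the fold and the interval were met by 10 higher (2.57%) and 11 lower genes (2.83%). The median log2 ratio was 0.01. Both directions were equally frequent. Calls at this fold depend on how members are chosen: with a marker sum of at least 3 there were 14 higher and 13 lower genes, and with all limits at 0 there were 6 and 15. With single pools, genotype and differences between the pools cannot be told apart.

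IGFBP5, a secreted binding protein of insulin-like growth factors, had the lowest ratio among the 235 genes with at least 60 counts. It had 65 counts in 44 control members (15.9 per 10000) and 25 counts in 16 Tbx5 G125R/+ members (7.55), a log2 ratio of -1.05 (-1.80 to -0.38). No single nucleus carried the difference: without the member with the most counts of each library the ratio was -1.12. IGFBP5 was lower in cardiomyocyte nuclei as well, at -0.87 (-1.99 to 0.12), but in fibroblast nuclei it was higher, at 0.91 (0.15 to 1.68). That call depends on how fibroblast nuclei are chosen: with a matrix sum of at least 1 the log2 ratio was 0.14 (-0.45 to 0.70). The difference between members and fibroblast nuclei was not tested. Mouse Igfbp5 lies on chromosome 1 from 72857932 to 72874884.

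Among the other low genes, TNRC6B, a scaffold of microRNA silencing, had 47 control and 21 Tbx5 G125R/+ counts (-0.84, -1.67 to -0.08). HNRNPDL, an RNA-binding protein, had 116 and 61 (-0.61, -1.09 to -0.16), and TAX1BP1, an autophagy receptor, 55 and 27 (-0.70, -1.44 to -0.03). RASGEF1B, an exchange factor for Rap GTPases, had 54 and 26 (-0.73, -1.48 to -0.05), and it was lower in cardiomyocyte nuclei too (-0.64, -1.10 to -0.19). CRYAB, a small heat shock protein abundant in muscle, had 101 and 54 (-0.59, -1.10 to -0.10). COX5A, EEF1B2, RPL36AL and FOXC1 had log2 ratios from -0.71 to -0.62 with intervals that included 0. Cardiomyocyte nuclei were also lower for HNRNPDL (-0.35, -0.66 to -0.04) and COX5A (-0.55, -0.94 to -0.17). In all nuclei other than members, IGFBP5, RASGEF1B, COX5A, EEF1B2, RPL36AL, HNRNPDL and CRYAB were lower in Tbx5 G125R/+, with intervals below 0. These ratios went from -0.42 (RPL36AL) to -0.15 (HNRNPDL). For TNRC6B, TAX1BP1 and FOXC1 the interval in those nuclei included 0.

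At the other end, PHF14, a PHD finger protein of chromatin, had 41 counts in 38 Tbx5 G125R/+ members and 19 counts in 19 control members. Its log2 ratio was 1.40 (0.60 to 2.29), while cardiomyocyte nuclei had -0.48 (-1.08 to 0.10) and fibroblast nuclei -0.23 (-0.84 to 0.35). SPTAN1, the alpha spectrin of the membrane skeleton, had 45 Tbx5 G125R/+ and 28 control counts (0.98, 0.28 to 1.73). CRIM1, a membrane protein that binds bone morphogenetic proteins, had 43 and 31 (0.77, 0.08 to 1.496), and PAFAH1B1, a dynein regulator, had the same counts. PAFAH1B1 was higher in fibroblast nuclei too (0.69, 0.06 to 1.32), while cardiomyocyte nuclei had -0.29 (-0.84 to 0.25). CDK12, a kinase of transcription elongation, had 59 and 43 (0.76, 0.17 to 1.37).

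MAT2A, which makes S-adenosylmethionine, was higher in more than the members. It had 83 Tbx5 G125R/+ and 63 control counts in members (0.70, 0.22 to 1.20) and a log2 ratio of 0.82 (0.53 to 1.11) in cardiomyocyte nuclei. EPC2, RASAL2 and HUWE1 had log2 ratios from 0.63 to 0.65 with intervals that included 0. Of the 13 named genes whose interval left out 0, IGFBP5 alone kept this under each of the 9 alternatives run on these ratios. PHF14 lost it only with a marker sum of at least 3, at 0.84 (-0.37 to 2.09), and SPTAN1 likewise, at 0.54 (-0.54 to 1.61).

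**Figure D5:**
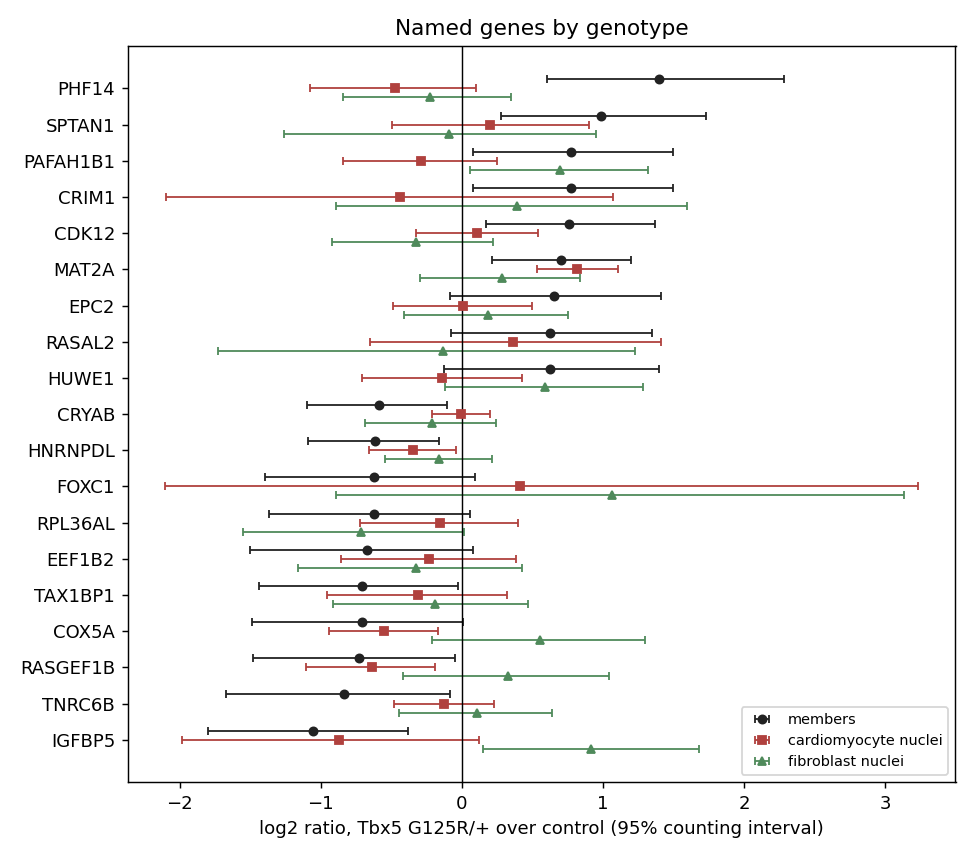
Log2 ratio of Tbx5 G125R/+ over control for 19 of the 10 highest and 10 lowest genes in members (black circles), and the same genes in cardiomyocyte (red squares) and fibroblast nuclei (green triangles), with 95% counting intervals. IGFBP5 lies left of 0 in members at -1.05 and right of 0 in fibroblast nuclei at 0.91 (0.14 with a matrix sum of at least 1), and MAT2A lies right of 0 in all 3.

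Marker genes of the rule were compared between genotypes as a description. ERG had 31 Tbx5 G125R/+ and 20 control counts (log2 ratio 0.93, 0.08 to 1.83), and LDB2, a LIM domain cofactor, 11 and 31 (-1.15, -2.33 to -0.15). HMCN1, at 291 and 392 counts, had a log2 ratio of -0.12, and TEK, at 100 and 127, had -0.03. GATA2, a zinc finger factor of endothelial and blood lineages, had -0.54 (-1.22 to 0.10). For NRG1, with 8 Tbx5 G125R/+ and 2 control counts, the interval was -0.02 to 5.58.

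The gene lists had no common direction in members, and counts of list genes are over those with at least 20 counts, where the median of all 806 such genes was -0.00. Pan-endothelial genes outside the rule had 4 of 4 above 0 with a median of 0.43. Of them only ARHGAP31, a GTPase-activating protein of vessels, had an interval that left out 0 (283 Tbx5 G125R/+ and 275 control counts, 0.35, 0.11 to 0.59). This rise was not confined to members, since the log2 ratio of ARHGAP31 over other nuclei was 1.18 in control and lower in Tbx5 G125R/+. In cardiomyocyte nuclei the list was at 60.2 per 10000 (55.2 to 65.6) in control and 80.03 (74.1 to 86.3) in Tbx5 G125R/+. Without ARHGAP31 and MECOM those levels were 1.93 and 1.53. Endothelial transcription factors had 9 of 11 above 0 (median 0.24), with KLF4, a flow-responsive factor, at 0.54 (-0.15 to 1.25). Junction and adhesion genes had 7 of 11 above 0 (median 0.10). BMP and TGF-beta genes had 2 of 6 above 0 (median -0.12), among them ID3 at -0.22 (-0.62 to 0.17). For the lists of 3 genes, the median was -0.34 for VEGF and angiopoietin, -0.36 for basement membrane and matrix and -0.62 for endocardial genes.

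The endocardial list rested on a single nucleus for its most changed gene. INHBA, the beta A subunit of activin and inhibin, had 30 counts in control and 5 in Tbx5 G125R/+ members (-2.16, -3.9996 to -0.90). Of the 30 control counts, 24 were in 1 nucleus, and INHBA was detected in 5 control and 3 Tbx5 G125R/+ members. Without the member with the most counts in each library its log2 ratio was -1.08 (-4.62 to 1.20).

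Lists of general programs varied as well. Glucocorticoid-responsive genes had 5 of 6 above 0 (median 0.43), with NFKBIA, the inhibitor of NF-kappa-B, at 23 Tbx5 G125R/+ and 10 control counts (1.47, 0.38 to 2.74). Splicing and nuclear speckle genes had 9 of 15 above 0 (median 0.12). In that list the RNA helicase DDX5 had 1352 and 1331 counts (0.33, 0.22 to 0.44), its paralog DDX17 77 and 136 (-0.51, -0.93 to -0.10) and the splicing kinase CLK1 19 and 6 (1.89, 0.59 to 3.58). The rise of DDX5 was not confined to members, since its log2 ratio over other nuclei was 0.096 in control and 0.099 in Tbx5 G125R/+. Cardiomyocyte transcripts outside the rule had 1 of 5 above 0 (median -0.38) and a summed level of 92.7 per 10000 in control and 74.0 in Tbx5 G125R/+ members. Fibroblast markers were also lower in Tbx5 G125R/+ members, as given with the marker lists. Their part in the genotype ratios was not tested.

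In the lists with fewer than 3 genes of 20 counts, no median was taken. HES1, a Notch target on the arterial list, had 27 control and 12 Tbx5 G125R/+ counts (-0.83, -1.98 to 0.17), and EFNB2 had 0.38 (-0.60 to 1.37). NR2F2 had 0.15 (-0.27 to 0.56) and JUN, of the immediate-early list, -0.09 (-0.55 to 0.35). The list of capillaries and lipid uptake and the mitochondrially encoded list had 0 genes of this size.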

How the data were processed

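Each genotype had 1 library of right atrial nuclei, pooled from 3 atria, with 7000 nuclei loaded. The deposited tables hold raw counts per nucleus and gene, made by the authors after keeping nuclei with at least 1000 reads, with no normalization. The processing notes name mm10. For aligner and counting tool the sources used here give no name. The authors' own table of comparisons holds corrected p-values and fold changes per cluster and was not used, nor was their cluster label.

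Members were found by the rule in the report. Members, marker lists and gene lists were chosen with earlier results of these data known. Counts were summed per library and group, without the 16 marker and 6 limit genes in numerator and total, and scaled to 10000. Exceptions were the levels and ratios of the marker genes themselves, the levels of cell type markers and the floor of TBX5. Those used totals that include the marker and limit genes. Ratios had 0.5 added to each sum and exact conditional Poisson 95% intervals, and shares had Clopper-Pearson intervals. The intervals treat counts as independent, which clustered counts within a nucleus are not. Ratios were tested on simulated independent Poisson counts, the model that the intervals assume, which does not tell how they hold for clustered counts. Cardiomyocyte nuclei had TTN of at least 5 and fibroblast nuclei a matrix sum of at least 2, both with a marker sum of at most 1 and at most 1 count of the other type's limit genes.

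Named were all marker genes, TBX5, the 15 highest ratios over other nuclei, the 10 highest and 10 lowest genotype ratios among genes with at least 60 counts in members, and up to 4 genes per list. NRP2, TGFBR2, PKP4, DOCK4, ARHGAP29, MAGI1, FBLN5, CTNNA3, IGFBP7, ERRFI1, FOS, TAL1, NFKBIA, CLK1, DDX17, RAMP2, HEG1, BNC2, COL1A2 and the genes that separated the sides were named after their values were seen. Not every gene picked this way is reported here. Gene positions are from GENCODE, matched by symbol. Python 3.11.15, numpy 2.4.6, pandas 2.3.3, scipy 1.17.1 and matplotlib 3.10.9 were used.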

Additional observations from a re-analysis of the deposited data

Results flagged for a closer look

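IGFBP5 moved in opposite directions between genotypes in members, at a log2 ratio of -1.05 (-1.80 to -0.38), and in fibroblast nuclei, at 0.91 (0.15 to 1.68), with both intervals leaving out 0. The difference between these populations was not tested, since each genotype has 1 library. Fibroblast nuclei held 32 Tbx5 G125R/+ and 30 control counts of IGFBP5, and members held 25 and 65.
In nuclei with a matrix sum of at least 3 the log2 ratio was 1.54 (0.34 to 2.83), and with a sum of at least 1 it was 0.14 (-0.45 to 0.70), a choice made after seeing the data.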

How the results depend on the processing

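The share of member nuclei in the control and Tbx5 G125R/+ library moved with the definition: 4.03% and 3.55% at a marker sum of at least 3, 6.30% and 6.17% with at least 2 different marker genes, 11.3% and 10.3% with no limits, 4.23% and 4.64% with limits at 0, 6.53% and 6.89% without TEK, 4.06% and 4.16% without HMCN1, and 5.21% and 5.66% after thinning to 80 counts, which left out 365 and 459 shallower nuclei. Leaving out any other single marker gene kept both shares within their intervals, as did leaving out LDB2, PRKCH, NRG1 and TMEM108 together.

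Genes higher in members numbered 256 with 20 and 75 with 80 as the count minimum, and 75 against nuclei of marker sum 0, an alternative chosen after seeing the data. Lower genes numbered 147 with the doubled minimum, 102 against marker sum 0 and 135 with no limits. Genotype counts, higher and lower, were 14 and 13 at a marker sum of at least 3, 44 and 51 with no limits, 6 and 15 with limits at 0, 80 and 93 with the minimum halved and 3 and 5 with it doubled. Scaling by the median of ratios shifted log2 ratios by 0.01.

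Of 180 alternative ratios of the 20 named genes, 179 kept their sign. Of 117 for the 13 genes whose interval left out 0, 27 had intervals that included 0. Of 94 list medians, 90 kept their sign. Those that moved by over 0.3 were the endocardial list, at -1.22 with at least 2 marker genes and -0.97 without members chosen by HMCN1 alone (also chosen after seeing the data), the matrix list, at -0.03 with the minimum halved, the glucocorticoid list, at 1.06 without members chosen by HMCN1 alone, and the cardiomyocyte transcripts, at -0.05 with no limits and -0.03 with limits at 0. The cause was not tested.

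No paired analysis was possible because each genotype has 1 library. Leaving out a replicate was not possible either. Median depths of 145 and 131 counts per member set the precision, and genes under 40 summed counts were not called. Variation between mice is unknown.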
